A study of Mus musculus with 35 samples.

Results

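The genes described here make, break down and bind hyaluronan in mouse pancreatic cancer cells. They were taken by symbol from the deposited count table, and all 6 were found among its 53465 genes, each under a single gene identifier: the synthases Has1, Has2 and Has3, the hyaluronidases Hyal1 and Hyal2, and the receptor Cd44. All 6 passed the filter on low counts in every comparison.

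Hyaluronan is a long, unsulfated sugar polymer of the extracellular matrix. Synthases in the plasma membrane build it from UDP-glucuronic acid and UDP-N-acetylglucosamine and push the growing chain out of the cell. Hyal2, held at the cell surface, cuts it into fragments that Hyal1 degrades further in lysosomes. Cd44 binds the polymer at the cell surface and is tied to the actin cytoskeleton by ezrin, radixin and moesin. Pancreatic ductal adenocarcinoma is known for a stroma rich in hyaluronan.

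The libraries came from KC-shSmad4 cells, lines derived from primary tumors of mice with Ptf1aCre/+, the RIK allele (a Cre-activated rtTA3 with an mKate2 fluorescent reporter, in Rosa26) and a doxycycline-inducible shRNA against Smad4 in the Col1a1 homing cassette. Every library therefore carries the Cre, the reporter and the shRNA. Ptf1a-Cre acts in pancreatic epithelium, and the sorted reporter-positive cells were meant to be the transplanted tumor cells. Fibroblast markers in the pancreas libraries and in 1 liver library exceeded the epithelial ones, as given below. Cells were placed in the pancreas (100000 cells), in the spleen for liver metastases followed by splenectomy (400000 cells), or in the tail vein for lung metastases (250000 cells) of female athymic nude mice, hosts that lack T cells. Hosts were fed doxycycline, which was withdrawn for the Smad4 on groups at week 4 (pancreas), 5 (liver) or 6 (lungs), and mKate2+ cells were sorted 7 or 14 days later for polyA RNA sequencing. Libraries labelled Smad4 off and on numbered 3 and 2 in pancreas on day 7, 2 and 3 in liver on day 7, 4 and 2 in lungs on day 7, 2 and 3 in pancreas on day 14, 3 and 3 in liver on day 14, and 4 and 4 in lungs on day 14. The replicate number in the labels is read here as that of the host mouse. How many cell lines stand behind a group is not given there, so p-values measure only the spread between these libraries.

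Smad4 mRNA went against the labels: in counts-per-million units (CPM) it lay at 69.9 to 143 in the 18 libraries labelled Smad4 off and at 14.8 to 22.4 in the 17 labelled Smad4 on, with no overlap. Groups are therefore called "labelled Smad4 on" and "labelled Smad4 off", and each fold change is the former against the latter. Were the labels exchanged, every difference between labels given below would keep its size and turn its sign. Library totals ran from 11885461 to 43571007 counts, with a median of 19415320, so that 3 counts stand for 0.0689 to 0.252 CPM. Epithelial markers (Epcam, Cdh1, Krt8, Krt18, Krt19) were above 0 in every library and summed to 2181 to 6920 CPM in pancreas, 3577 to 14888 in liver and 5311 to 13532 in lungs. The 7 fibroblast markers summed to 8788 to 24265 CPM in the pancreas libraries, 255 to 35799 in liver and 159 to 1989 in lungs. The library at 35799 is replicate 2 of liver day 7 labelled Smad4 off, which is also the 1 library labelled as paired-end. In 10 libraries, 4 from liver and 6 from lungs, the mitochondrial gene mt-Co3 had counts, and in the other 25 it had none. In bulk samples, fewer cells of a type and less RNA per cell cannot be told apart.

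In GRCm38, Has1 (ENSMUSG00000003665) lies at chr17:17843328-17855188 on the minus strand, Has2 (ENSMUSG00000022367) at chr15:56665627-56694539 on the minus strand, and Has3 (ENSMUSG00000031910) at chr8:106870242-106884566 on the plus strand. Hyal2 (ENSMUSG00000010047) and Hyal1 (ENSMUSG00000010051) are neighbours on the plus strand, at chr9:107567945-107572779 and chr9:107576927-107581710. Cd44 (ENSMUSG00000005087) spans chr2:102811141-102901665 on the minus strand. Exons of Hyal1 share 1920 of their 3777 bases with Nat6 on the same strand and 159 with Hyal3, so Hyal1 counts are uncertain where reads fall in shared exons. Exons of Has2 share 182 of 4237 bases with the antisense RNA Has2os, and those of Has3 share 352 of 6380 with Chtf8 on the opposite strand. The exons of Hyal2 and Cd44 overlapped no other annotated exon. Has2os was low itself, at 0.154 to 1.57 CPM in libraries labelled Smad4 off and 0 to 1.98 in those labelled on.

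RefSeq promoter sequences of 300 bases (250 before the start and 50 after it, GRCm38.p6) matched Has1, Hyal1, Hyal2 and Cd44. Has2 and Has3 had no such sequence and were not searched. The promoter of Has1 is shown because Has1 is a synthase that differed between labels. Among these 4 members it is also the only one whose window holds 2 matches to GTCTG, the core of the Smad-binding element. The Has1 window covers chr17:17855139-17855438 on the minus strand, and the capitals mark the matches. Both are read here as the reverse complement CAGAC, whose leftmost bases lie at positions -94 and -18 from the start.
Has1 promoter: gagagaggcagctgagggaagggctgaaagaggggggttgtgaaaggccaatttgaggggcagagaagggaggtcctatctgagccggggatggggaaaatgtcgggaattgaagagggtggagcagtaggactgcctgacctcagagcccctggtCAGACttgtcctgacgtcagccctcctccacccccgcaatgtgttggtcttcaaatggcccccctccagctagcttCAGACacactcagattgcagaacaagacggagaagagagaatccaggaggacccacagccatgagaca
GTCTG, searched on both strands, is found in 49.6% of 32851 mouse promoter windows of this length, so a match is common. The Hyal1 window holds 1 match, at -117, and those of Hyal2 and Cd44 hold none. The palindrome GTCTAGAC (0.213% of windows), the AP-1 motif TGANTCA (7.81%) and TATAAA (13.6%) were absent from all 4 windows. GTCTAGAC shares only part of GTCTG, and the other motifs do not overlap it.

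Cd44 was the most abundant member and the synthases ranged most widely. Levels between genes are compared as CPM per kilobase of the transcript length in the table. On that scale Cd44 was highest in 35 of 35 libraries, with levels of 69.4 to 196 and a median of 124. Hyal2 lay at 10.8 to 24.0 CPM per kb and exceeded Hyal1 (0.948 to 4.17) in 35 of 35 libraries, by 4.42 to 19.3 times. The Hyal1 level per kb, and so this factor, is uncertain, since 1920 of its 3777 exon bases are shared with Nat6. Has1 ran from 0.112 to 35.3 CPM per kb (median 4.80), Has2 from 0.0907 to 12.1 (median 2.69) and Has3 from 0.025 to 0.922 (median 0.341). The synthase transcripts thus ranged from above Hyal2 to below Hyal1, while the hyaluronidases and Cd44 each stayed within a narrow band. All levels from here on, unless given per kb, are CPM scaled by edgeR's TMM factors.

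**Figure D1:**
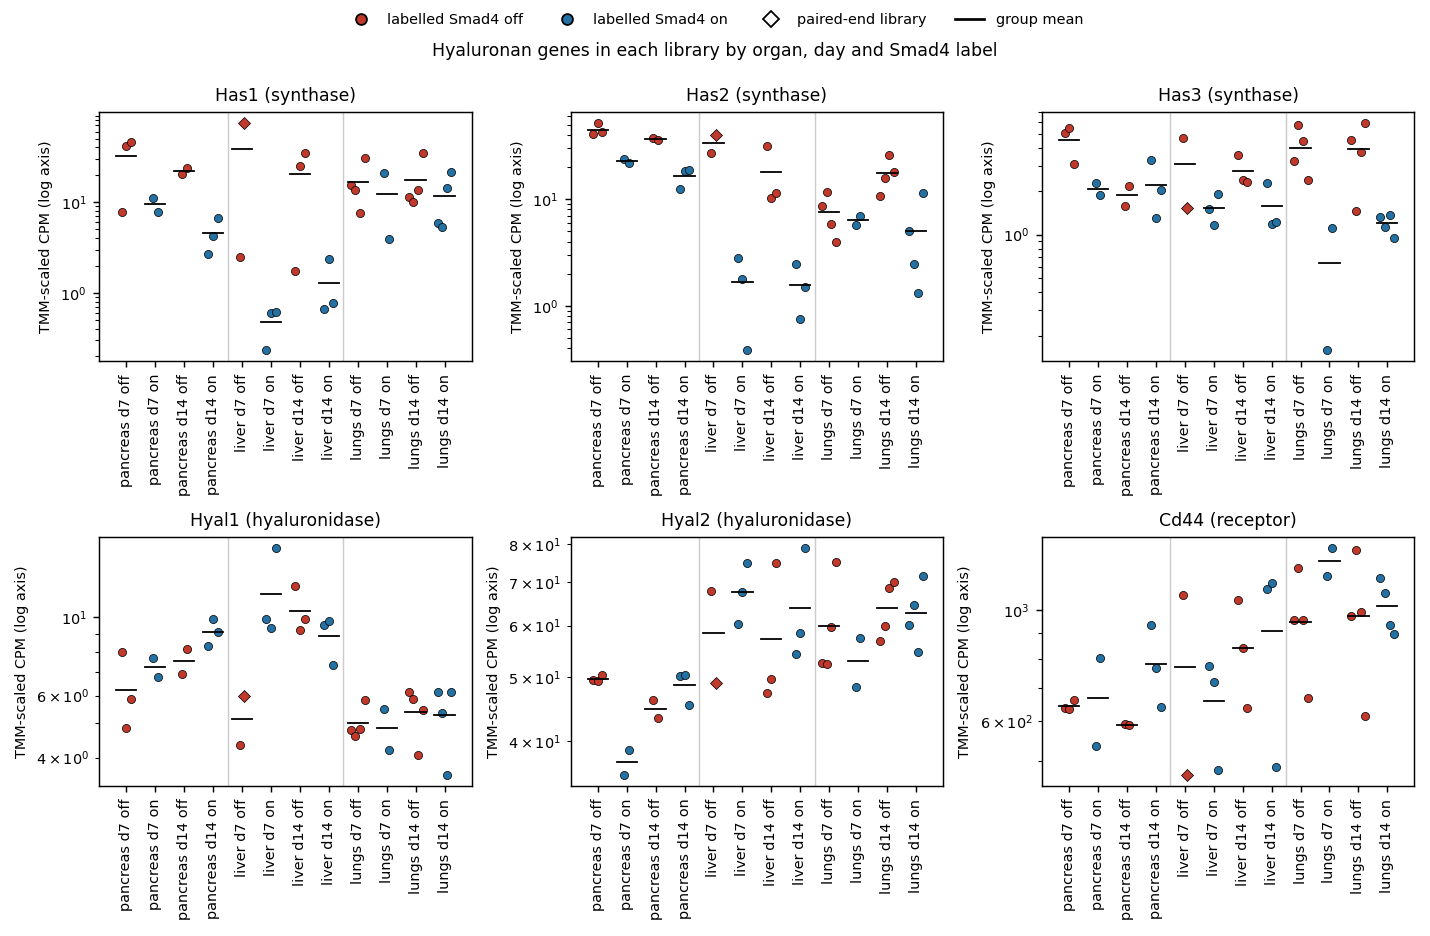
Levels of the 6 genes in each of 35 libraries (log axis, TMM-scaled CPM), by organ, day and Smad4 label. Has2 reached at most 2.82 CPM in the 6 liver libraries labelled Smad4 on and at least 10.2 in the 5 liver libraries labelled off, whereas Hyal2 stayed between 35.5 and 78.9 throughout.

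Has2 and Has1 fell in pancreatic tumors labelled Smad4 on at day 14, and they were the only members called in any of the 6 comparisons of labels. Has2, generally the main synthase of mesenchymal and invasive cells, measured 37.4 and 35.6 CPM in the 2 libraries labelled Smad4 off and 12.4, 18.2 and 18.8 in the 3 labelled on. Has1, the synthase with the lowest enzyme activity in textbook accounts, measured 20.4 and 23.5 CPM against 2.66, 4.21 and 6.69. Every library labelled on lay below every library labelled off for both genes. Has2 fell by 1.13 on the log2 scale (SE 0.18, edgeR quasi-likelihood test, adjusted p = 0.00699) and Has1 fell by 2.27 (SE 0.33, adjusted p = 0.00823). To be called, a gene had to change by more than 2-fold at an adjusted p below 0.05, with adjustment over all genes tested. In this comparison 4.64% of 14234 genes were called, against 2 of 6 members. Both calls were lost without off replicate 1 (Has1 -2.38, adjusted p = 0.0619, and Has2 -1.11, 0.0801) and without off replicate 2 (Has1 -2.15, 0.0737, and Has2 -1.15, 0.0684). Without on replicate 1, Has2 fell by 0.96 with an adjusted p of 2.01e-05, just under the fold limit. Fibroblast markers overlapped between the labels, at 11976 to 12662 CPM labelled off and 8788 to 17301 labelled on. The 5 epithelial markers summed to 3735 to 4020 CPM labelled off and 4809 to 6920 labelled on. Mesothelial markers were apart too, at 183 to 193 and 244 to 336, as were hepatocyte markers, at 1.40 to 2.18 and 5.97 to 10.4. The part of these markers in the result was not tested.

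The same genes on day 7 in the pancreas gave a smaller or more scattered difference. Has2 measured 41.1, 51.4 and 42.3 CPM labelled off and 23.8 and 21.8 labelled on, again with no overlap. It fell by 0.97 on the log2 scale (SE 0.14, edgeR adjusted p = 0.0310), short of the fold limit. Has1 measured 7.76, 41.9 and 46.1 CPM labelled off against 11.1 and 7.86 labelled on. The groups overlapped through off replicate 1, and the log2 difference of -1.73 did not pass (adjusted p = 0.260). Without that library the differences were -2.19 for Has1 (adjusted p = 0.0275) and -1.02 for Has2 (0.0464), and both were then called. No member was called with all libraries, beside 1.33% of 14439 genes. At an unadjusted p under 0.05 there were 3 members (Has2, Has3 and Hyal2), beside 1711 genes higher and 1629 lower. DESeq2 called 0 members. Fibroblast markers summed to 11809 to 16861 CPM labelled off and to 23308 to 24265 labelled on, moving opposite to Has2. Acinar markers moved with it, at 1716 to 2740 CPM labelled off and 619 to 837 labelled on. So did leukocyte markers, at 66.8 to 88.8 and 44.1 to 54.8. The part of these markers in the result was not tested.

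The widest gaps in Has2 and Has1 lay in liver metastases, but in few and uneven libraries. On day 7, Has2 measured 27.3 and 39.6 CPM in the libraries labelled Smad4 off and 2.82, 1.78 and 0.384 in those labelled on. On day 14 it measured 31.7, 10.2 and 11.4 against 2.44, 0.754 and 1.5. The groups were apart on both days: the lowest liver library labelled off held 10.2 CPM and the highest labelled on held 2.82. The log2 difference was -4.39 on day 7 (SE 0.80, 95% interval -6.42 to -2.35) and -3.56 on day 14 (SE 0.66, -5.14 to -1.99). Neither passed by edgeR's quasi-likelihood test, with adjusted p = 0.0647 and 0.357. Without replicate 1 of the day 7 group labelled off the differences were -4.58 for Has2 and -7.30 for Has1. That fit sets the libraries labelled on against the paired-end library alone.

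Has1 in liver was uneven among the libraries labelled Smad4 off. On day 7 it measured 2.51 and 73.9 CPM labelled off against 0.235, 0.595 and 0.615 labelled on. On day 14 it measured 1.74, 25.1 and 34.4 against 0.667, 2.37 and 0.778. The groups did not overlap on day 7 and overlapped on day 14 through off replicate 1. Between day 14 libraries with the same replicate number Has1 was lower labelled on in 3 of 3, though such libraries come from different mice. Has1 differed by -6.38 on day 7 (SE 1.45, edgeR adjusted p = 0.0807) and by -4.00 on day 14 (SE 1.09, 0.370). The liver library with 73.9 CPM of Has1 is the paired-end one with the high fibroblast sum of 35799 CPM, against 323 in the other library labelled off on day 7. Its acinar markers summed to 313 CPM, against 4.88 to 16.9 in the other liver libraries, and its hepatocyte markers to 1.32. Without the paired-end library, which leaves only the other library labelled off, the Has1 difference was -2.50 and the Has2 difference -4.11. On day 14 the 3 libraries labelled off held fibroblast sums of 255, 4309 and 1754 CPM in replicate order, with the lowest again in the library with the least Has1, but the most Has2. On day 7 the groups were also apart in epithelial markers (3577 to 10816 CPM labelled off, 13602 to 14888 labelled on), mesothelial markers (219 to 689 and 1286 to 5107) and hepatocyte markers (1.32 to 16.6 and 55.5 to 139). Leukocyte markers were apart on day 7 (12.5 to 18.3 CPM labelled off, 33.3 to 55.9 labelled on) and on day 14 (22.7 to 58.3 and 64.4 to 145). The part of these markers in the Has1 and Has2 levels was not tested.

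In the liver edgeR called 0 members on day 7, beside 0.444% of 16007 genes, and 0 on day 14, beside 0% of 14947 genes. At an unadjusted p under 0.05 there were 3 members on day 7 (Has1, Has2 and Hyal1) and 2 on day 14 (Has1 and Has2). Over all genes 2217 were higher and 2123 lower at that p on day 7, and 689 higher and 758 lower on day 14. DESeq2 called those 3 members on day 7 (adjusted p = 3.39e-06, 7.85e-07 and 0.0285) and those 2 on day 14 (0.00121 and 5.51e-06). The shares of all genes called by DESeq2 and by the single fit described next are not given here. A single edgeR fit of all 12 groups, which shares 1 estimate of spread, called the same 5 (adjusted p = 0.000486, 9.95e-05 and 0.00268 on day 7, 0.0449 and 0.0084 on day 14) and not Has1 and Has2 in the pancreas on day 14. Whether the liver difference passed thus depended on the fit, while its sign was negative for Has1 and Has2 in each alternative run.

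Lung metastases showed no called difference in the synthases. Has2 measured 8.69, 11.7, 5.84 and 3.97 CPM labelled off on day 7 and 5.73 and 6.87 labelled on. On day 14 it measured 10.8, 15.8, 25.6 and 18 against 5.06, 2.45, 1.31 and 11.4. The groups overlapped on both days, on day 14 through on replicate 4 alone. Between lung libraries of day 14 with the same replicate number Has2 was lower labelled on in 4 of 4, though such libraries come from different mice. The log2 difference was -0.22 on day 7 (SE 0.44, interval -1.27 to 0.83, edgeR adjusted p = 0.998) and -1.81 on day 14 (SE 0.61, -3.19 to -0.42, 0.359). Has1 overlapped on both days as well, with log2 differences of -0.48 on day 7 (SE 0.76, edgeR adjusted p = 0.998) and -0.59 on day 14 (SE 0.57, 0.823). It measured 15.6, 13.7, 7.53 and 30.4 CPM against 20.8 and 3.96 on day 7, and 11.3, 10.0, 13.6 and 35.1 against 5.94, 5.26, 14.2 and 21.4 on day 14. By replicate number, Has1 on day 14 was lower labelled on except in replicate 3. On that day it followed the mt-Co3 split under both labels. It was 13.6, 35.1, 14.2 and 21.4 CPM in libraries with mt-Co3 counts and 11.3, 10.0, 5.94 and 5.26 in those without. The labels overlapped among the former and were apart among the latter. What sets these libraries apart was not tested.

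Has3, a synthase known from keratinocytes and other epithelia, was the scarcest member and was lower in the lung libraries labelled Smad4 on without passing the test. On day 7 it measured 3.24, 5.71, 4.46 and 2.38 CPM labelled off and 0.159 and 1.11 labelled on, where 0.159 rests on 2 counts. On day 14 it measured 4.54, 1.45, 3.73 and 5.89 against 1.33, 1.13, 1.37 and 0.947. Every lung library labelled on was below every one labelled off of its day. On day 7 fibroblast sums were apart in the same direction, at 420 to 1989 CPM labelled off and 159 to 396 labelled on. So were mesothelial (442 to 653 and 296 to 321), acinar (5.69 to 12.2 and 3.47 to 3.58) and, narrowly, hepatocyte markers (10.316 to 26.2 and 9.95 to 10.273). The part of these markers was not tested. The log2 difference was -2.53 on day 7 (SE 0.80, edgeR adjusted p = 0.894) and -1.72 on day 14 (SE 0.42, 0.226). For lungs edgeR called 0 members on both days, beside 0% of 15193 genes on day 7 and 0.0271% of 14751 on day 14. At an unadjusted p under 0.05 there were 1 on day 7 (Has3) and 2 on day 14 (Has2 and Has3). Over all genes 366 were higher and 427 lower at that p on day 7, and 763 higher and 722 lower on day 14. DESeq2 called 0 on day 7 and Has3 alone on day 14 (adjusted p = 0.0139), and the share of all genes it called is not given here.

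Elsewhere Has3 differed less clearly. In the pancreas on day 7 it measured 5.06, 5.44 and 3.08 CPM labelled off against 2.26 and 1.87 labelled on, with no overlap and a log2 difference of -1.12 (SE 0.35, edgeR adjusted p = 0.130). On day 14 the pancreas groups overlapped, at 1.59 and 2.18 against 3.27, 1.30 and 2.02, with a difference of 0.25 (adjusted p = 0.751). In liver the difference was -1.10 on day 7 (adjusted p = 0.304) and -0.86 on day 14 (0.605), and the groups were apart only on day 14, at 3.57, 2.37 and 2.30 against 2.29, 1.18 and 1.22. That gap, 2.30 against 2.29, is far smaller than the spread within either group.

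Neither hyaluronidase was called between labels by edgeR's fits within each organ and day. Hyal1 in liver on day 7 was called by DESeq2 (1.11, adjusted p = 0.0285) and by the single edgeR fit of all 12 groups (1.18, 0.00268). The shares of all genes called in these 2 settings are not given here. Hyal1, the lysosomal enzyme, measured 4.34 and 5.99 CPM in liver labelled Smad4 off on day 7 and 9.91, 9.32 and 15.8 labelled on, so here the libraries labelled on were all higher. The log2 difference was 1.09 (SE 0.37, interval 0.16 to 2.03, adjusted p = 0.139). It was 1.32 (adjusted p = 0.135) without the paired-end library. On day 14 the liver groups overlapped, at 12.3, 9.21 and 9.89 labelled off against 9.52, 9.76 and 7.34 labelled on, with a difference of -0.28. In the pancreas on day 14 all 3 libraries labelled on (8.31, 9.88 and 9.10) exceeded both labelled off (6.91 and 8.16), by 0.29 on the log2 scale (adjusted p = 0.337). In lungs the difference of Hyal1 was -0.04 on day 7 (interval -0.76 to 0.69) and -0.03 on day 14 (-0.56 to 0.51).

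Hyal2, the membrane-anchored enzyme, was among the steadiest members. Its only separation was in the pancreas on day 7, at 49.6, 49.4 and 50.4 CPM labelled off and 35.5 and 38.8 labelled on. The log2 difference of -0.41 (SE 0.10, interval -0.64 to -0.18) had an edgeR adjusted p of 0.0791. In the other 5 comparisons the log2 difference lay between -0.16 and 0.14 and the groups overlapped. In the pancreas on day 14, for example, the ranges were 43.4 to 46.2 CPM labelled off and 45.3 to 50.5 labelled on. These intervals were tightest in the pancreas on day 14 (-0.06 to 0.35) and widest in liver on day 14 (-0.45 to 0.70).

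Cd44 was not called between labels either. In the pancreas on day 14 it measured 593 and 590 CPM labelled Smad4 off and 934, 766 and 643 labelled on, with no overlap and a log2 difference of 0.42 (SE 0.15, interval 0.08 to 0.76, edgeR adjusted p = 0.106). In lungs on day 7 the difference was 0.43 (interval -0.22 to 1.08), with ranges of 668 to 1214 labelled off and 1171 to 1330 labelled on that overlapped. In the other 4 comparisons it lay between -0.31 and 0.07, with overlap in each. Cd44 moved with the mt-Co3 split in liver: 470 to 637 CPM in the 4 liver libraries with mt-Co3 counts and 720 to 1134 in the 7 without. In lungs the corresponding ranges overlapped, at 615 to 1330 and 954.8 to 1318. What sets these libraries apart was not tested. The counts are summed over the gene, so splice variants of Cd44, which binding of hyaluronan can depend on, are not resolved here.

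**Figure D2:**
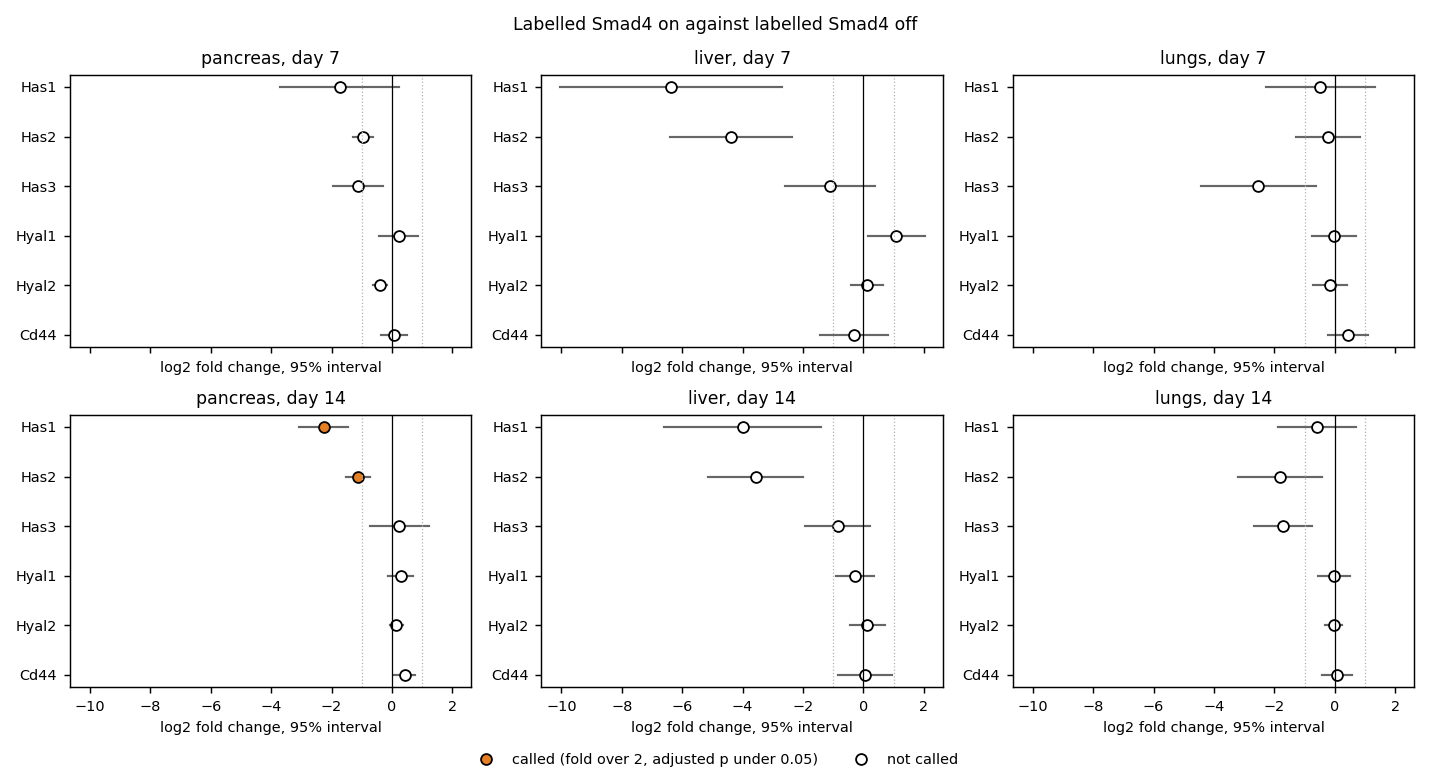
Log2 fold change of each gene, labelled Smad4 on against labelled off, by organ and day, with 95% intervals from edgeR's quasi-likelihood fit (filled orange points were called). Has1 and Has2 in the pancreas on day 14 (-2.27 and -1.13) are the 2 called points, and the liver points of Has1 and Has2 lie further to the left with wide intervals.

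Ranked by mean level, Has2 was highest in the pancreas labelled Smad4 off on day 7 (44.9 CPM) and lowest in liver labelled on on day 14 (1.56). Its neighbours in that order were apart at only 3 steps: between pancreas day 7 and day 14 labelled off (36.5 on day 14), between liver day 7 labelled off (33.4) and pancreas day 7 labelled on (22.8), and between pancreas day 14 labelled on (16.5) and lungs day 7 labelled off (7.55). For Has1 the first 9 groups in the order overlapped with their neighbours. The last 3 were apart: pancreas day 14 labelled on (4.52 CPM), liver day 14 labelled on (1.27) and liver day 7 labelled on (0.482). All 6 groups labelled on stood below all 6 labelled off in mean Has1, though neighbouring ranges overlapped where the orders met. Has3 and Hyal1 had no step at which neighbouring groups were apart, and Hyal2 and Cd44 had 1 and 2.

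The synthases also traded places. Per kb, Has1 was the leading synthase in 23 libraries, Has2 in 11 and Has3 in 1. Has1 led in all 14 lung libraries under both labels, and in 4 of 5 pancreas libraries labelled Smad4 off. Has2 led in 5 of 5 pancreas libraries labelled on. In liver labelled off Has1 led in 3 and Has2 in 2, and in liver labelled on Has2 led in 3, Has1 in 2 and Has3 in 1. The liver libraries labelled on are those with synthase levels so low that the order rests on few counts, the minimum being 9 counts for Has1 and 10 for Has2.

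The ratio of summed synthases to summed hyaluronidases, per kb, was lowest in liver labelled Smad4 on, libraries with 14.8 to 15.95 CPM of Smad4. It was 0.0255 to 0.0736 there (median 0.0435, n = 6), against 0.385 to 2.73 in liver labelled off (median 0.769, n = 5), with no overlap. Pancreas libraries spanned 0.827 to 2.03 labelled off and 0.269 to 0.880 labelled on. Lung libraries spanned 0.293 to 0.968 and 0.156 to 0.701. In both of these organs the ranges of the labels overlapped. The ratio compares transcripts, not enzyme activity or hyaluronan, and it was given no test. Its Hyal1 part carries the uncertainty of the exons shared with Nat6.

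**Figure D3:**
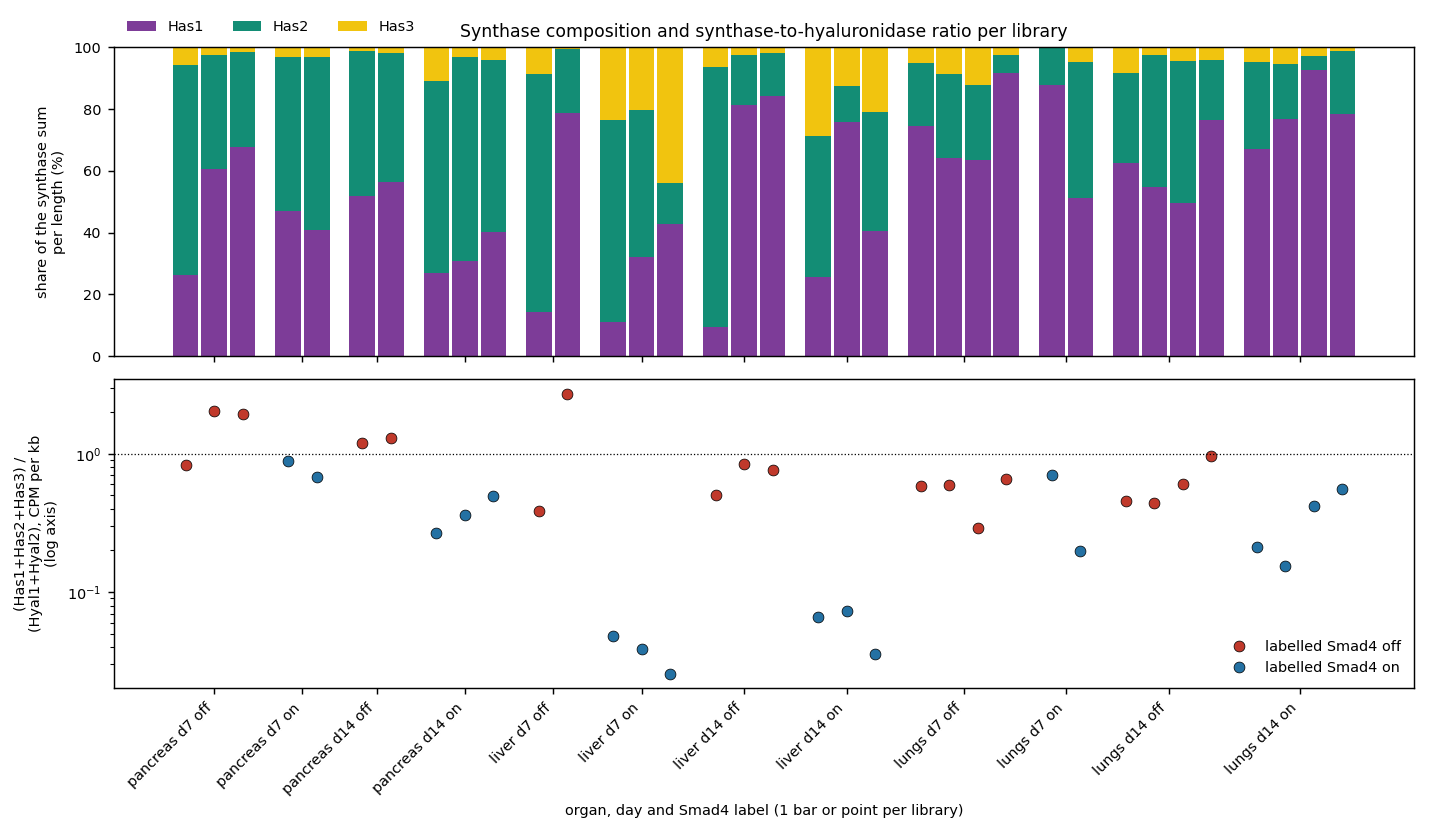
Share of each synthase in the summed synthase level per kb (upper panel, 1 bar per library) and the ratio of summed synthases to summed hyaluronidases (lower panel, log axis, 1 point per library), by organ, day and label. The 6 liver libraries labelled Smad4 on lie at or under 0.0736, below all others, and Has1 holds the largest share in all 14 lung libraries.

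Between organs, Has2 was highest in the pancreas, and 8 of 36 tests over the members were called, all of synthases. These comparisons average the differences of both days within a label, and the 3 organ contrasts of a label share libraries, so they are not independent. Among libraries labelled Smad4 off, Has2 spanned 35.6 to 51.4 CPM in the pancreas (median 41.1), 10.2 to 39.6 in liver (27.3) and 3.97 to 25.6 in lungs (11.2). The pancreas and lung ranges did not overlap. Has2 was lower in lungs than in pancreas by a log2 difference of -1.87 (SE 0.30, edgeR adjusted p = 0.00034) and higher in liver than in lungs by 1.10 (SE 0.30, 0.0407). The latter was not called without any 1 of 13 of the 18 libraries, for example at 0.93 (adjusted p = 0.116) without the paired-end library and at 0.71 (0.117) without liver day 14 off replicate 1. The difference lay on day 7: it was 2.13 on day 7 alone (adjusted p = 0.0465) and 0.06 on day 14 alone (0.969), where the means were 17.8 CPM in liver and 17.6 in lungs. Liver against pancreas differed by -0.77 (SE 0.34, adjusted p = 0.139). Of all genes 18.3% were called in lungs against pancreas, 4.33% in liver against lungs and 8.53% in liver against pancreas, beside 1, 1 and 0 of 6 members. In the last of these Has2 was the 1 member at an unadjusted p under 0.05 by edgeR, and DESeq2 called 0.

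Among libraries labelled Smad4 on, Has1 and Has2 were lowest in liver. Has2 spanned 12.4 to 23.8 CPM in the pancreas, 1.31 to 11.4 in lungs and 0.384 to 2.82 in liver, and only lungs and liver overlapped. It differed by -3.60 in liver against pancreas (SE 0.55, edgeR adjusted p = 0.000149), by -1.78 in lungs against pancreas (SE 0.55, 0.0273) and by -1.81 in liver against lungs (SE 0.52, 0.0241). Has1 spanned 0.235 to 2.37 CPM in liver, below all 5 pancreas libraries (2.66 to 11.1) and all 6 lung libraries (3.96 to 21.4). Its log2 difference was -3.08 in liver against pancreas (SE 0.55, adjusted p = 0.000456) and -3.94 in liver against lungs (SE 0.55, 0.000344). Has3 was lower in lungs than in pancreas by -1.26 (SE 0.42, adjusted p = 0.0368). The shares of all genes called were 22.4% in liver against pancreas, 13.5% in lungs against pancreas and 11.2% in liver against lungs, beside 2 of 6 members in each.

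These calls differed in how far they rested on single libraries. Both liver-against-pancreas calls, Has1 in liver against lungs, and Has2 in lungs against pancreas labelled off kept their calls without any 1 library. Has2 in liver against lungs labelled on was not called without lungs day 7 on replicate 2 (adjusted p = 0.0631) or liver day 14 on replicate 2 (0.0504). Has2 in lungs against pancreas labelled on was not called without any 1 of 5 libraries, nor Has3 without any 1 of 8. With a covariate for mt-Co3 counts Has2 in lungs against pancreas labelled on differed by -1.76 (adjusted p = 0.0643), and over the libraries without mt-Co3 counts Has2 in liver against lungs labelled on differed by -1.25 (0.0528). DESeq2 called all 8, and the shares of all genes it called are not given here. Fibroblast sums also differ between the organs, at 8788 to 24265 CPM in the pancreas and 159 to 1989 in lungs, as do acinar markers, at 619 to 2771 CPM in the pancreas and 2.94 to 13.2 in lungs. Labelled Smad4 on, liver libraries held fibroblast sums of 343 to 3001 CPM and acinar sums of 5.89 to 16.9, below the pancreas libraries. They were apart from lungs labelled on in mesothelial markers (962 to 5107 against 218 to 489), hepatocyte markers (34.5 to 139 against 5.13 to 19.2) and endothelial markers (2.95 to 8.88 against 27.8 to 78.7). Also apart were lung epithelial markers (0.580 to 1.61 against 86.3 to 426) and the 5 epithelial markers (12846 to 14888 against 6988 to 10972). Pancreas libraries labelled on held epithelial sums of 2954 to 6920 CPM and mesothelial sums of 183 to 336. Their hepatocyte sums were 1.93 to 10.4 and their endothelial sums 18.3 to 34.9, all apart from liver. The part of these markers in the organ differences was not tested.

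Hyal1, Hyal2 and Cd44 differed between organs by less than 2-fold. Labelled Smad4 on, Hyal1 spanned 7.34 to 15.8 CPM in liver and 3.58 to 6.14 in lungs, without overlap, a log2 difference of 0.99 (edgeR adjusted p = 0.00219). It was lower in lungs than in pancreas by -0.69 (adjusted p = 0.0198) labelled on and by -0.46 (0.0489) labelled off. Hyal2 labelled on was higher than in pancreas in liver (0.61, adjusted p = 0.000936) and in lungs (0.43, 0.0175). Cd44 labelled on was higher in lungs than in pancreas by 0.64 (adjusted p = 0.045). None of these 6 reached the fold limit, though Hyal1 in liver against lungs labelled on sat at it, and was called with no filter on low counts (1.03, adjusted p = 0.00252) and in the single fit of all 12 groups (1.00, 0.000254).

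**Figure D4:**
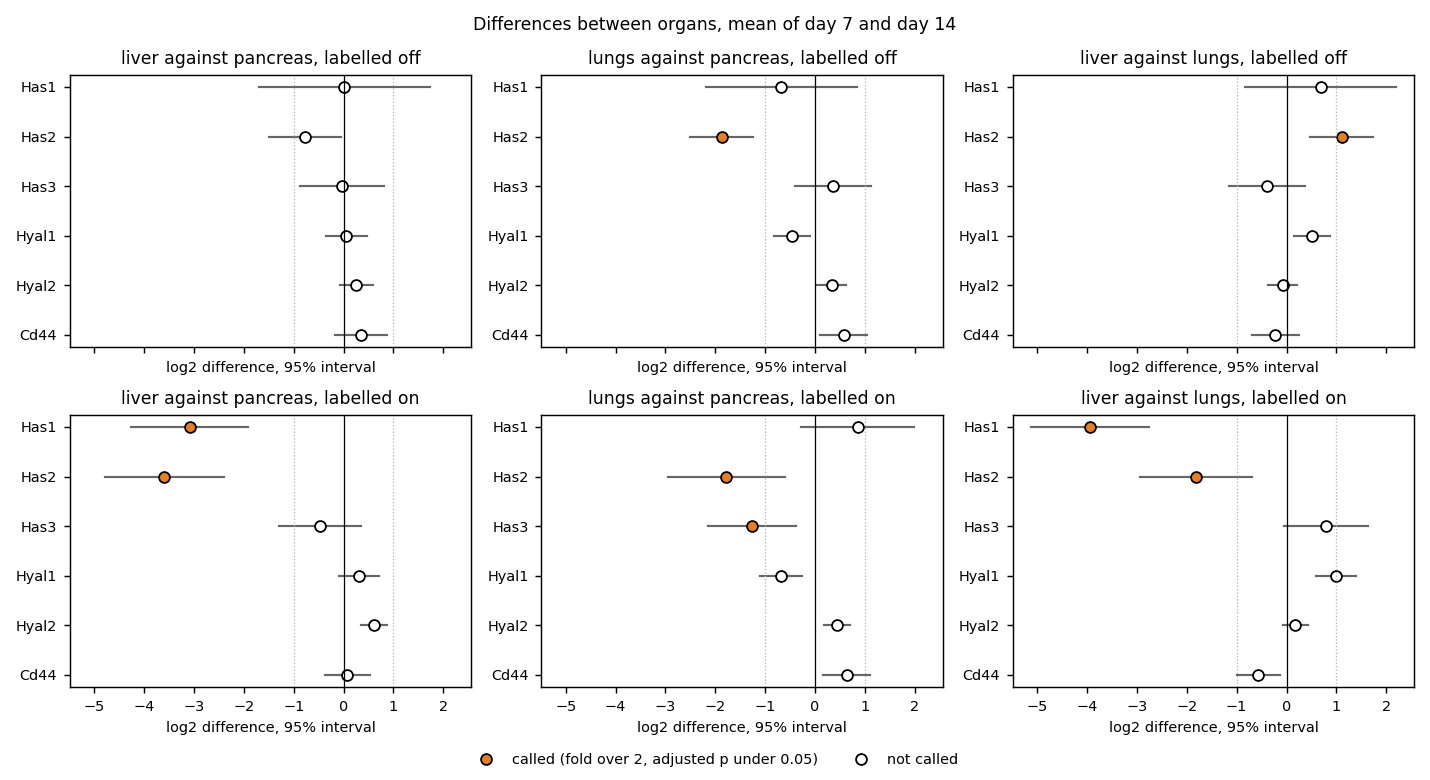
Log2 differences between organs for each gene, with 95% intervals from edgeR's fits, 1 panel per contrast and label (filled orange points were called). The largest called differences are those of Has1 and Has2 in liver labelled Smad4 on, at -3.94 against lungs and -3.60 against pancreas.

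The difference between labels was itself compared between liver and lungs. On day 7 Has2 fell further in liver: the liver difference minus the lung difference was -4.10 (SE 0.87, 95% interval -6.05 to -2.15, edgeR adjusted p = 0.0485). It was the 1 called member, beside 1.86% of 16369 genes called. Has1 gave -5.84 (SE 1.54, adjusted p = 0.0738) and Hyal1 1.2 (SE 0.46, 0.169). The Has2 call was lost without the paired-end library (-3.86, adjusted p = 0.100). It was also lost without any of liver on replicates 1, 2 and 3 (0.0669, 0.113 and 0.0691), lung off replicates 1 to 4 (0.0919, 0.0723, 0.11 and 0.0593) or lung on replicate 2 (0.141). DESeq2 called Has2 (adjusted p = 0.000224) and Has1 (0.00135), and the share of all genes it called is not given here. On day 14 edgeR called 0 members, beside 0% of 15869 genes. Has1 differed by -3.40 (interval -6.00 to -0.79) and was the 1 member at an unadjusted p under 0.05, beside 144 genes higher and 334 lower. Has2 differed by -1.75 (interval -3.78 to 0.29). DESeq2 called 0 on day 14.

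The difference between labels on day 14 was set against that on day 7 in each organ, and 0 of 18 tests over the members were called by edgeR or by DESeq2. The shares of all genes called were 0.0596% of 15093 in the pancreas, 0% of 16913 in liver and 0% of 16220 in lungs. At an unadjusted p under 0.05 there were 3. Over all genes 1235 were higher and 1076 lower at that p in the pancreas, 474 and 836 in liver, and 594 and 359 in lungs. Hyal1 in liver went from the higher value labelled on at day 7 to overlap at day 14, a change of -1.40 (SE 0.43, adjusted p = 0.621). Hyal2 in the pancreas changed by 0.57 (SE 0.12, adjusted p = 0.106) and Has3 in the pancreas by 1.38 (SE 0.57, 0.292). For Has2 the change was -0.14 in the pancreas (interval -0.68 to 0.39), 0.80 in liver (-1.52 to 3.13) and -1.57 in lungs (-3.40 to 0.26).

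The genes whose levels ran most like those of each member were taken as the 3 with the highest Spearman rank correlation over the 35 libraries, among 17547 genes. These are descriptions across libraries that share organ, label and depth. For Has2 they were Rbpms2 (0.954), the integrin chain Itgb1 (0.938) and Msn (0.938), which encodes moesin, a linker of Cd44 to actin. For Has1 they were Ap2a2 (0.803), Smad7 (0.800), an inhibitory Smad, and Myh9 (0.794). For Has3, Hyal1, Hyal2 and Cd44 the first was Cenpt (0.752), Stbd1 (0.776), Pwp2 (0.908) and Bzw2 (0.847). Msn measured 200 to 496 CPM in liver labelled Smad4 on and 681 to 2019 in liver labelled off. In the pancreas it spanned 1188 to 1599 labelled on and 2141 to 2860 labelled off, and in lungs 586 to 933 and 840 to 1335. The liver libraries labelled on were the lowest for Msn and the pancreas libraries labelled off the highest, while Has2 overlapped between liver and lungs labelled on.

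**Figure D5:**
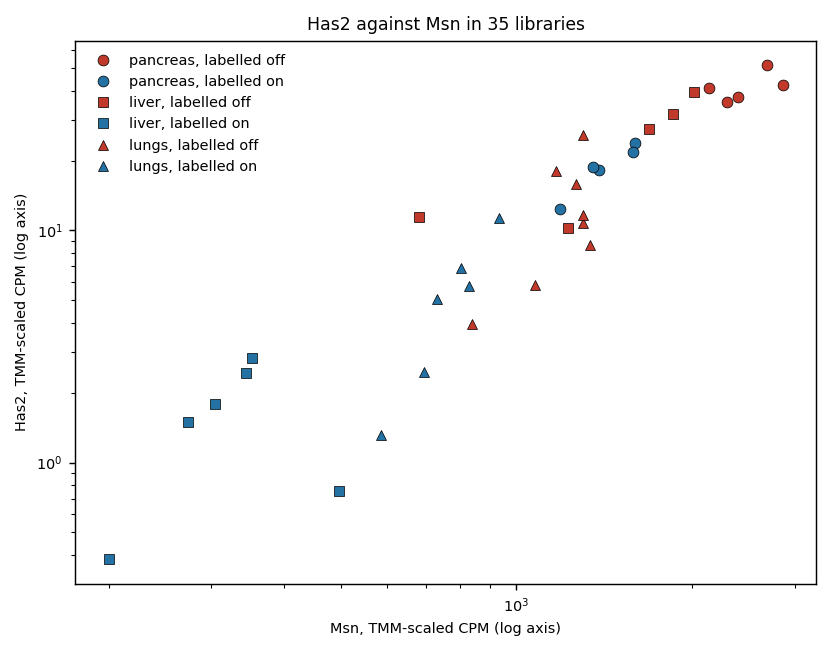
Has2 against Msn in 35 libraries (both TMM-scaled CPM on log axes), by organ and label. The 6 liver libraries labelled Smad4 on sit lowest on the Msn axis, at 200 to 496 CPM with Has2 at or under 2.82, and the 5 pancreas libraries labelled off highest, at 2141 to 2860 with Has2 of 35.6 to 51.4.

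The rest of the pathway was read from a list of 54 genes for precursor synthesis, other breakdown enzymes, other receptors, hyaluronan-binding matrix proteins, and partners or processors of Cd44. In the pancreas on day 14, 6 of the 39 tested rose and 0 fell, with a median log2 difference of 0.08 against 0.02 over all genes, of which 4.64% were called (482 higher and 179 lower). Esrp2 (1.13, edgeR adjusted p = 0.00692) and Esrp1 (1.39, 0.0422), the epithelial splicing regulators that act on Cd44 transcripts, rose. So did 4 genes listed under hyaluronan-binding matrix proteins, among them Itih4 (2.84, 0.0306), Ambp (2.01, 0.0305) and Habp2 (1.66, 0.007). Each of these 5 named calls was lost without off replicate 1, with adjusted p from 0.0593 (Habp2) to 0.272 (Esrp1). Without off replicate 2, Esrp1, Ambp and Habp2 were lost (0.145, 0.186 and 0.088), and without on replicate 2, Esrp1, Itih4 and Ambp (0.0972, 0.061 and 0.0506). In the same libraries hepatocyte markers were apart, at 1.40 to 2.18 CPM labelled off and 5.97 to 10.4 labelled on, as were mesothelial markers, at 183 to 193 and 244 to 336, and their part was not tested. On day 7 in the pancreas, where 1.33% of all genes were called, 2 of 42 rose, Mmp9 (4.06, 0.00325), a protease that binds Cd44, and Itih4 (1.52, 0.0352), and 1 fell, the receptor Stab1 (-1.32, 0.0334). Mmp9 kept its call without any 1 library (adjusted p at most 0.0276). Itih4 lost it without any 1 library but off replicate 2 (up to 0.154), and Stab1 without any 1 of the 5 (0.0545 to 0.168). In liver and lungs edgeR called 0 of the 41 to 43 tested on either day.

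Between liver and lungs, the day 7 response differed for 2 of 43 genes on the list, beside 1.86% of all genes, Msn (-2.26, edgeR adjusted p = 0.0372) and the receptor Lyve1 (3.73, 0.0443). Both calls were lost without any 1 of 8 of the 11 libraries (adjusted p up to 0.134 and 0.136), the paired-end one among them (0.0763 and 0.0987). They held without liver off replicate 1, lung off replicate 4 or lung on replicate 1. Between organs, where all genes were also called more often, the list was counted in the same way. In liver against pancreas labelled Smad4 on, 7 of 44 were higher and 13 lower, beside 22.4% of all genes called. Cemip, a hyaluronan-binding protein needed for its depolymerization, was lower by -3.71 (adjusted p = 1.82e-08), as were Tmem2 (Cemip2, -1.23), the hyaluronan-organizing Tnfaip6 (-4.24), versican (Vcan, -3.17), Msn (-2.17) and Gfpt2 (-4.35), an enzyme of the hexosamine pathway that feeds UDP-N-acetylglucosamine. Its paralogue Gfpt1 (1.74) and Gnpnat1 (1.66), of the same pathway, were higher. In lungs against pancreas labelled on (13.5% of all genes), 4 were higher and 9 lower, Cemip (-2.01) and Gfpt2 (-2.22) among the lower. Tnfaip6 (-2.19) and Vcan (-2.08) were lower too, but Tnfaip6 was not called without pancreas day 7 on replicate 2 (adjusted p = 0.0532), nor Vcan without any 1 of 6 libraries (up to 0.158). In liver against lungs labelled on (11.2%), 4 were higher and 6 lower, including Cemip (-1.70) and Gfpt2 (-2.12). Labelled off, the counts were 6 higher and 2 lower in liver against pancreas (8.53% of all genes), 9 and 9 in lungs against pancreas (18.3%), and 2 and 3 in liver against lungs (4.33%). Cemip was again lower than in the pancreas in both sites, at -1.81 in liver and -1.86 in lungs. In liver it ranged from -3.04 to -1.34 as single libraries were left out, and was not called without pancreas day 14 off replicate 1 (adjusted p = 0.053) or 2 (0.0649).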

How the data were processed

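The authors sequenced polyA RNA (TruSeq Stranded mRNA kit, 75-base single-end reads, 1 library paired-end) and deposited raw read counts per gene for 35 libraries. Per the submitters' processing notes, FastQC 0.11.5, Trimmomatic 0.36, STAR 2.5.3a and featureCounts 1.6.3 were used with GRCm38/mm10; the strand setting of the counting is not given in the sources used here. All count columns were mapped to samples by their labels. No pair of libraries held identical counts.

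Counts were tested with edgeR 4.0.16 (robust quasi-likelihood F test, filterByExpr with a minimum count of 10 and minimum total of 15, TMM, R 4.3.3), with Benjamini-Hochberg adjustment over all genes tested, and genes were called where the change exceeded 2-fold with an adjusted p below 0.05. Labels were compared within each organ and day, organs within each label, and responses by interaction terms. Alternatives were DESeq2 1.42.0, other size factors, filters, covariates, sets of libraries and a block for mouse number. SE is the log2 fold change over the root of F, and intervals use its t distribution. Levels are TMM-scaled CPM computed here, per library. Scripts were tested on simulated counts. Every member was reported in every label comparison. The other pathway genes named come from up to 3 called per list and direction with the lowest p. Between organs only some of these are named. Members and lists were chosen with earlier results of these data known. Figures were drawn with matplotlib 3.10.9.

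Deviations of same-numbered libraries from their group means correlated in liver on day 14 (0.12, 0.12 and 0.55). In lungs on day 14 they correlated too (0.48, 0.49, 0.55 and 0.52). There the mt-Co3 split falls on the same numbers under both labels, replicate 3 in liver and replicates 3 and 4 in lungs. It cannot be told apart from a pairing by number. A host was either kept on doxycycline or taken off it, so same-numbered libraries of different labels come from different mice. The main tests did not pair libraries. Library totals of 11885461 to 43571007 counts put 3 counts at 0.0689 to 0.252 CPM, a floor that allows for counting error alone. A further allele that all lines share is not reported here.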

Additional observations from a re-analysis of the deposited data

Results flagged for a closer look

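The Has1 level of lung day 14 labelled Smad4 off replicate 4, 35.1 CPM, stood apart from the other 3 libraries of its group, at 10.0 to 13.6 CPM. Its gap to the nearest was 0.857 of the group's range, above Dixon's critical value of 0.829 for 4 values. It was the single such value among 18 groups of 4 examined over the 6 genes, and chance alone is expected to give about 1 of this kind in a set of that size. This library has mt-Co3 counts, as does replicate 3 of its group, at 13.6 CPM.

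The log2 fold change of Has2 between labels differed between liver and lungs on day 7, by -4.10 (SE 0.87, edgeR interaction test, adjusted p = 0.0485). Has2 was lower in 3 of 3 liver libraries labelled on than in either labelled off, while the lung libraries of both labels overlapped. The call was lost without the paired-end library (-3.86, adjusted p = 0.100).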

How the results depend on the processing

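Members called between labels numbered 2, and 8 with DESeq2 and 5 in a single fit of all 12 groups; leaving out single libraries gave 0 to 4. Between organs the 8 called became 5 with no filter on low counts, 4 with at least 10 counts in every library, 5 on day 7 alone, 2 on day 14 alone and 14 with no fold threshold (6 to 9 without single libraries). For the liver against the lung response, the 1 called became 2 with DESeq2, 0 without the paired-end library and 0 with a replicate block (Has2 adjusted p = 0.383), and 0 to 2 without single libraries. For day 14 against day 7 it was 0 in all settings run. Of the pathway list, 9 were called between labels, and 19 with no filter, 46 with DESeq2, 20 with a covariate for mt-Co3 counts, 5 with the replicate block, 14 without the paired-end library, 27 in the single fit and 16 with no fold threshold (3 to 30 without single libraries). The shares of all genes called in these other settings are not given here, so the counts are not read as results about these genes. The cause of these shifts was not tested.

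Signs turned for differences near 0: Cd44 in liver on day 14 (-0.0049 with the mt-Co3 covariate) and Hyal2 in liver on day 7 (-0.11 without the paired-end library). With the replicate block they turned for Cd44 in liver (0.0024) and Hyal1 and Hyal2 in lungs (0.082 and 0.057) on day 7. Leaving out single libraries, log2 differences that changed sign ranged, for Cd44, from -0.15 to 0.36 (liver day 14), -0.80 to 0.46 (liver day 7), -0.11 to 0.22 (lungs day 14) and -0.25 to 0.32 (pancreas day 7). For Has1 they ranged from -1.07 to 0.0088 (lungs day 14) and -2.05 to 0.26 (lungs day 7), for Has2 from -0.41 to 0.057 (lungs day 7), and for Has3 from -0.17 to 0.50 (pancreas day 14). For Hyal1 the ranges were -0.13 to 0.12 (lungs day 14) and -0.20 to 0.10 (lungs day 7), and for Hyal2 -0.062 to 0.35 (liver day 14), -0.11 to 0.44 (liver day 7), -0.11 to 0.020 (lungs day 14) and -0.34 to 0.014 (lungs day 7).

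The block for mouse number changed no member call between labels (2 remained). What same-numbered libraries share, beyond the mt-Co3 split in liver and lungs on day 14, is not given. It was not fitted for organ or day comparisons. Groups held 2 to 4 libraries, which limits every comparison, and the lowest Has3 value rests on 2 counts.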
